A study of Mus musculus with 12 samples.

Results

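Small RNA libraries of TM4 cells that overexpressed *Ang* (Ang OE) were compared with libraries of non-treated TM4 cells (Ctrl), 2 libraries in each group, which are 4 of the 12 libraries of the series. The members were chosen by their sample labels alone, and every small RNA class and subclass listed for them was read. TM4 is an established Sertoli cell line of the mouse testis. Ctrl cells were grown without treatment, and Ang OE cells carried the coding sequence of mouse *Ang* in the expression vector pDEST26. No vector without an insert is named as a control, so plasmid delivery and *Ang* cannot be told apart, and the time between delivery and harvest is not given in the sources used here. A further 2 TM4 libraries, from cells given 10 µM Compound C (CC) for 12 h, entered the statistical model to estimate the spread between libraries. Nothing in the labels says that the libraries of a group came from separate cultures, so p-values measure the spread between these libraries, which may be technical.

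Angiogenin, the product of *Ang*, is a secreted ribonuclease of the RNase A family. In stressed cells it cuts mature tRNAs in the anticodon loop and leaves a 5′ and a 3′ fragment, and it is also known for its part in rRNA transcription and in the growth of blood vessels. Sertoli cells nurse the developing germ cells. The deposited tables list small RNAs only, so the *Ang* transcript could not be used to check the labels.

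Clean reads numbered 54081799 and 64038150 in Ctrl and 52665390 and 58223045 in Ang OE. rRNA took 6.89% to 7.41% of them in Ctrl and 5.92% to 6.35% in Ang OE, and reads with no annotation took 8.93% to 11.2% and 6.95% to 7.91%. The libraries of a group differed by more than counting noise. The miRNAs of connective tissue cells, such as mir-199a, mir-199b, mir-214 and mir-143, summed to 68223 and 65715 counts per 1000000 miRNA reads (CPM) in Ctrl and to 124199 and 168441 in Ang OE. mir-143 made up most of this, and without it the other members summed to 18050 and 19521 CPM in Ctrl and 20707 and 20478 CPM in Ang OE. The summed levels of 5 epithelial miRNAs were 1.18 to 2.65 CPM and those of 5 blood cell miRNAs 2.75 to 4.23 CPM over the 4 libraries, with mir-200a and mir-429 both at 0 in Ctrl 1 and in Ang OE 2.

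The question of the comparison was which tRNA fragments and other small RNAs change when a tRNA-cutting enzyme is overexpressed. Reads matched to tRNAs made up a larger part of the small RNA in Ang OE, and reads of most other annotated classes a smaller part. As a share of the annotated reads, tRNA reads were 2.88% and 2.32% in Ctrl and 3.72% and 5.04% in Ang OE. The share of miRNA reads was 58.6% and 61.2% in Ctrl and 66.0% and 62.9% in Ang OE. Both Ang OE libraries lay above both Ctrl libraries for these 2 types.

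The share of snoRNA reads, fragments of the guides of rRNA modification, was 3.39% and 3.24% in Ctrl and 1.95% and 2.18% in Ang OE. Fragments of snRNAs, the RNAs of the spliceosome, made up 0.332% and 0.217% against 0.141% and 0.179%. Mitochondrial tRNA reads made up 0.405% and 0.315% against 0.258% and 0.270%. In each of these types both Ang OE libraries were below both Ctrl libraries, as they also were for rRNA, piRNA-annotated reads and the remaining Ensembl and Rfam classes. Y RNA reads, by contrast, overlapped between the groups at 0.0714% to 0.0825% of the annotated reads. The shares were not tested and are given as values. An exact 2-sided permutation of 2 and 2 libraries could give no p smaller than 0.333.

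Reads matched to mature cytosolic tRNAs were sorted into tRF5, which start at the 5′ end of the tRNA, tRF3, which end at its 3′ end, and other fragments. The levels are in reads per 1000000 clean reads without rRNA (RPM). tRF5 reached 10869 and 5972 RPM in Ctrl and 23102 and 31203 RPM in Ang OE. tRF3 went the other way, at 6584 and 8147 RPM in Ctrl and 3232 and 4999 RPM in Ang OE. The groups did not overlap in either class. Mean tRF5 were 8420 ± 3463 RPM (SD, n = 2) in Ctrl and 27152 ± 5728 RPM in Ang OE, 3.23 times as high, and mean tRF3 7366 ± 1105 RPM and 4115 ± 1249 RPM, 1.79 times as high in Ctrl. Without the fragments of Gly-GCC, Gly-CCC, Val-AAC and Val-CAC, tRF5 still came to 3265 and 1872 RPM in Ctrl and 4739 and 6642 RPM in Ang OE. In cell populations, fewer cells and less RNA per cell cannot be told apart.

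**Figure D1:**
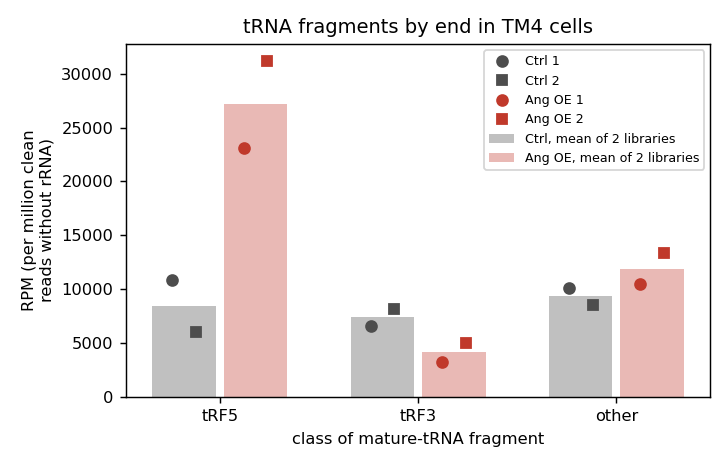
RPM of tRF5, tRF3 and other fragments of mature cytosolic tRNAs (vertical axis) in the 2 Ctrl and 2 Ang OE libraries; bars are group means and points single libraries. tRF5 lie at 5972 to 10869 RPM in Ctrl and 23102 to 31203 in Ang OE, tRF3 at 6584 to 8147 and 3232 to 4999.

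Fragments with neither end were 10125 and 8539 RPM in Ctrl and 10438 and 13367 RPM in Ang OE, so that Ang OE was only just above Ctrl. As percentages of the mature-tRNA reads, tRF5 made up 39.4% and 26.4% in Ctrl and 62.8% and 63.0% in Ang OE. The 2 Ctrl libraries stood further apart in this share than the 2 Ang OE libraries. The share of other fragments was 36.7% and 37.7% in Ctrl and 28.4% and 27.0% in Ang OE, the opposite direction to their RPM. Nearly all tRF3 carried the CCA tail that is added to finished tRNAs: without it, the 3′ fragments came to 29.0 to 39.2 RPM in Ctrl and 17.6 to 21.8 RPM in Ang OE.

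The makeup by tRNA family also differed. Glycine tRNAs, the source of the most abundant 5′ fragments, gave 20.6% and 21.7% of the mature-tRNA reads in Ctrl and 35.9% and 32.5% in Ang OE, and valine tRNAs 16.0% and 9.93% against 18.7% and 22.4%. Lysine tRNAs gave 21.0% and 18.2% against 19.7% and 19.0%, which overlap. Several families had smaller shares. Isoleucine tRNAs gave 0.876% and 1.26% in Ctrl and 0.206% and 0.180% in Ang OE, phenylalanine tRNAs 1.81% and 2.65% against 0.481% and 0.581%, and alanine tRNAs 5.50% and 9.40% against 1.90% and 2.30%. Glutamic acid tRNAs gave 11.6% and 10.4% in Ctrl and 4.65% and 4.74% in Ang OE. These shares add up to a whole, so a larger share of glycine and valine goes with smaller shares of others. In RPM, alanine, isoleucine, phenylalanine and glutamic acid were lower in both Ang OE libraries too, though glutamic acid only just, at 3190 and 2354 RPM against 1708 and 2350 RPM. Lysine was higher, at 5789 and 4118 RPM against 7259 and 9432 RPM.

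Among single tRFs, 6 rose and 8 fell in Ang OE of 143 tested, which is 9.79% of them (4.2% higher and 5.59% lower). A call needed more than a 2-fold difference and an adjusted p under 0.05, and 51 tRFs had an unadjusted p under 0.05. All 8 that fell were tRF3, and of the 6 that rose 4 were tRF5 and 2 other fragments. The median log2 fold change (Ang OE over Ctrl) was 0.63 over the 44 tRF5 tested, −0.65 over the 49 tRF3 and 0.10 over the 50 other fragments, against −0.01 over all 143. Of the tRF5, 25 had both Ang OE libraries above both Ctrl libraries and 4 had both below, and of the tRF3 4 and 36, where over all tRFs 35.7% lay above and 42% below. Reads that match several isoacceptors were divided among them, so fragments of like tRNAs are not independent.

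tRF3 of Ile-AAT fell the most of the called tRFs, from 170.6 and 207.3 RPM in Ctrl to 45.4 and 46.6 RPM in Ang OE. Its log2 fold change was −2.04 ± 0.29 (SE) with an adjusted p of 0.0167 by edgeR's quasi-likelihood test. tRF3 of Asp-GTC, a tRNA that DNMT2 methylates at cytosine 38, fell from 293.3 and 245.8 RPM to 73.0 and 76.5 RPM (log2 fold change −1.85 ± 0.29, adjusted p = 0.0167). In both fragments the Ang OE libraries stood close together and far below either Ctrl library. They are also the 2 tRF3 that stayed called whichever library was left out.

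The other tRF3 that fell came from Ile-TAT, Leu-TAG, Leu-AAG, Ser-GGA, Gln-TTG and Gln-CTG, with log2 fold changes of −1.91 to −1.24 and adjusted p-values of 0.0229 to 0.0309. Their levels in Ctrl were 33.8 to 149.0 RPM and in Ang OE 7.08 to 45.3 RPM. For none of these 6 did the groups overlap. Without Ctrl replicate 2, all 6 lost the call, and tRF3 of Gln-CTG lost it whichever of the 4 libraries was left out. tRF3 of Leu-AAG and Ser-GGA lost it without Ang OE replicate 1 as well. tRF3 of Phe-GAA, one of the more abundant 3′ fragments, had 387.3 and 477.5 RPM in Ctrl and 109.0 and 199.5 RPM in Ang OE, a log2 fold change of −1.49 ± 0.43 whose adjusted p of 0.0701 missed the threshold.

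tRF5 of Arg-TCT rose from 7.95 and 3.56 RPM in Ctrl to 17.1 and 37.7 RPM in Ang OE (log2 fold change 2.25 ± 0.57, adjusted p = 0.0432). tRF5 of SeC-TCA, the tRNA that carries selenocysteine, rose from 0.739 and 1.19 RPM to 5.17 and 3.41 RPM (2.14 ± 0.43, adjusted p = 0.0236). Both groups were apart in each, but the Arg-TCT libraries of Ang OE differed by more than a factor of 2 from each other. Leaving out 1 library moved the log2 fold change of Arg-TCT between 1.58 (without Ang OE replicate 2) and 2.95 (without Ctrl replicate 1) and that of SeC-TCA between 1.81 and 2.53, so their order is not stable. Leaving out Ctrl replicate 2 or Ang OE replicate 2 ended the call of Arg-TCT, and leaving out Ang OE replicate 1 ended that of SeC-TCA.

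tRNA-Tyr-GTA, whose wobble base is modified to queuosine, was represented by 2 of the fragments that rose. Its tRF5 went from 6.15 and 4.29 RPM to 9.67 and 19.97 RPM (log2 fold change 1.51 ± 0.38, adjusted p = 0.0432) and its other fragments from 84.4 and 67.1 RPM to 151.5 and 269.7 RPM (1.48 ± 0.36, adjusted p = 0.0391). The log2 fold change of the tRF5 dropped to 0.89 without Ang OE replicate 2. Its tRF3 had 124.4 and 143.1 RPM against 110.1 and 123.6 RPM, with an adjusted p of 0.652, and without the CCA-tailed reads its log2 fold change turned from −0.20 to 1.36. tRF5 of Gly-ACC rose from 2.15 and 1.51 RPM to 4.90 and 5.04 RPM, and other fragments of Met-CAT from 46.2 and 49.9 RPM to 106.4 and 118.2 RPM. The 6 fragments that rose had 0.739 to 84.4 RPM in Ctrl, which is low beside the leading tRF5. Each lost its call in at least 1 of the 4 models that left out a library.

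The leading tRF5 were higher in both Ang OE libraries but were not called in the model of 6 libraries. tRF5 of Gly-GCC, the most abundant tRNA fragment, had 2963 and 1906 RPM in Ctrl and 10001 and 11655 RPM in Ang OE (log2 fold change 2.15 ± 0.76, adjusted p = 0.0823). tRF5 of Gly-CCC had 760.7 and 504.6 RPM against 2045 and 2393 RPM (1.81 ± 0.62, adjusted p = 0.0763). Neither passed, although the Ang OE libraries of both lay well above the Ctrl libraries.

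tRF5 of Val-CAC had 2303 and 996.5 RPM in Ctrl and 4165 and 7088 RPM in Ang OE, with an adjusted p of 0.138. tRF5 of Val-AAC, whose 5′ sequence resembles that of Val-CAC, had 1577 and 693.1 RPM against 2153 and 3425 RPM. tRF5 of Lys-CTT had 2473 and 1353 RPM against 3790 and 5253 RPM, and tRF5 of His-GTG 203.7 and 93.9 RPM against 347.6 and 531.5 RPM. In all 4 of them Ctrl 1 was above Ctrl 2 and Ang OE 2 above Ang OE 1, with no overlap between the groups. Within the tRF5, Gly-GCC took 27.3% and 31.9% in Ctrl and 43.3% and 37.4% in Ang OE, while Lys-CTT took 22.8% and 22.7% against 16.4% and 16.8%.

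Whether some of these abundant fragments passed depended on the libraries in the model. Fitted on Ctrl and Ang OE alone, 16 tRFs rose and 14 fell, among them tRF5 of Gly-GCC (adjusted p = 0.0329), Gly-CCC (0.025) and His-GTG (0.0329), but not those of Val-CAC, Val-AAC and Lys-CTT. DESeq2 with the same library sizes called 14 higher and 13 lower. Without Ctrl replicate 2, only 3 tRFs were called, namely tRF5 of SeC-TCA and tRF3 of Ile-AAT and Asp-GTC. The CC libraries enter the spread in the 6-library model and not in the model of Ctrl and Ang OE alone.

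Set against each other by isoacceptor, the 5′ fragment changed more in favour of Ang OE than the 3′ fragment in 41 of the 44 isoacceptors with both ends tested. In 30 of them the tRF5 lay above 0 and the tRF3 below 0 on the log2 scale. The read ratio of tRF5 to tRF3 could be formed for 39 isoacceptors with at least 10 reads of each end in all 4 libraries, and both Ang OE libraries were above both Ctrl libraries in 28 of them (71.8%) and below in 1, Arg-ACG. The ratio of Gly-GCC was 7.79 and 3.57 in Ctrl and 79.8 and 36.8 in Ang OE, and that of Lys-CTT 92.5 and 46.1 against 191.8 and 256.9. For most of the 39 isoacceptors, those of alanine and phenylalanine among them, 3′ reads outnumbered 5′ reads in every library. The ratios of Phe-GAA were 0.00364 and 0.00285 against 0.0255 and 0.0163. The median shift of the ratio over the 39 isoacceptors was 1.53 on the log2 scale.

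**Figure D2:**
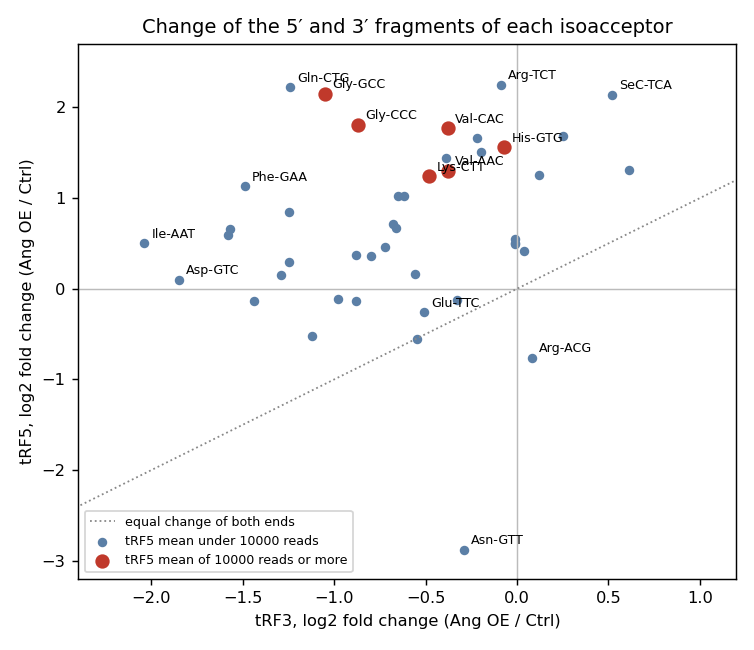
Log2 fold change (Ang OE over Ctrl) of the tRF5 (vertical axis) against that of the tRF3 (horizontal axis) for the 44 isoacceptors with both tested; each point is 1 isoacceptor and the dotted line marks equal change. Of the 44 points, 41 lie above the line, and the 6 isoacceptors whose tRF5 average 10000 reads or more (large points) are all at positive tRF5 values. Asn-GTT, with a tRF5 value of −2.88, lies lowest. Its tRF5 was not called and had 11 and 14 reads in Ctrl and 2 and 1 in Ang OE. It passed the filter of 10 reads only through the Ctrl libraries.

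The tRNAs whose 5′ fragments are abundant in stressed cells and in sperm (Gly, Glu, Val, Lys, His and Asp isoacceptors, 9 in all) gave 27 tRFs. None of them rose by the test and 1, the tRF3 of Asp-GTC, fell. Their 9 tRF5 had a median log2 fold change of 1.30, with 7 above Ctrl in both libraries, and their 9 tRF3 one of −0.51, with 8 below. Of all tRF5 tested 25 of 44 lay above, and of all tRF3 36 of 49 below, while over all tRFs 35.7% lay above and 42% below, so the tRF3 count is near that of the 3′ end in general. The exceptions among the tRF5 were Asp-GTC, at 23.9 and 19.2 RPM against 19.1 and 27.1 RPM, and Glu-TTC, at 114.4 and 85.9 RPM against 51.7 and 115.4 RPM. Of the 9 tRFs from DNMT2 substrates (Asp-GTC, Gly-GCC and Val-AAC) 1 fell, and of the 12 tRFs from queuosine tRNAs 2 rose and 1 fell, where 4.2% of all tRFs rose and 5.59% fell. With so few members, nothing particular to these lists can be read from the counts.

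Alanine and cysteine tRNAs, whose 5′ fragments can begin with a run of G, gave 11 tested tRFs of which none was called, where 9.79% of all tRFs were, so nothing is read from that count. Their median log2 fold change was −0.80, against −0.01 for all tRFs. It was −0.11 over the 3 tested tRF5, −0.94 over the 4 tRF3 and −0.75 over the 4 other fragments. tRF3 of Ala-AGC had 454.4 and 585.8 RPM in Ctrl and 168.0 and 268.4 RPM in Ang OE (adjusted p = 0.0763), and the 3 tested alanine tRF5 were at 1.75 to 5.21 RPM in every library. For the isoacceptors that the study names in TM4 cells, a list chosen on these samples and so no independent evidence, 3 tRFs rose and 2 fell of 30, where 4.2% of all tRFs rose and 5.59% fell. tRF3 of the 3 proline isoacceptors, which share their reads, overlapped between the groups.

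Mitochondria have tRNAs of their own, cut from the long transcripts of the mitochondrial genome. All mitochondrial tRNA reads together came to 3882 and 3079 RPM in Ctrl and 2548 and 2659 RPM in Ang OE. The 3′ fragments, the most abundant class, had 2660 and 2268 RPM in Ctrl and 1983 and 2020 RPM in Ang OE. Most of these were 3′ fragments of Val-TAC, at 2357 and 2015 RPM against 1805 and 1877 RPM, which were not called. Fragments with neither end had 616.7 and 391.7 RPM against 191.0 and 194.5 RPM, the class with the largest fold (2.62 times as high in Ctrl), while the 5′ fragments overlapped at 605.8 and 419.5 RPM against 374.1 and 444.8 RPM. Mitochondrial tRNA fragments were tested with rRNA, pre-tRNA, Ensembl, Rfam and piRNA subclasses, 103 in all, of which 2 rose and 19 fell at an adjusted p under 0.05 (20.4%, 1.94% higher and 18.4% lower). Of the 62 mitochondrial fragments tested, 2 rose and 10 fell, with a median log2 fold change of −0.53 against −0.51 for all 103. Both Ang OE libraries lay above both Ctrl libraries in 6.8% of the 103 and below in 60.2%. The scaling mattered: the median of the 103 was −0.11 with TMM normalization over these features, where 3 rose and 14 fell, and 0.05 with DESeq2's own size factors, where 5 rose and 10 fell. Only 21.69% and 19.85% of the mitochondrial tRNA reads matched the genome in Ctrl and 20.16% and 21.98% in Ang OE. With genome-matched reads alone, 13 of the 21 calls among all these subclasses were kept.

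The sequences of the mitochondrial tRNAs at the ends of the range are shown for orientation, from GENCODE transcripts, with the anticodon in capitals and the place in GRCm38.p6 from RefSeq. The anticodon was located by its letters in the middle of the sequence with 5 paired bases in the flanking stem.
mt-Tk (tRNA-Lys-TTT), chrM:7700-7764, plus strand: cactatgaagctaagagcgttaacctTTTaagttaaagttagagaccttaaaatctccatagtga
mt-Tn (tRNA-Asn-GTT), chrM:5089-5159, minus strand: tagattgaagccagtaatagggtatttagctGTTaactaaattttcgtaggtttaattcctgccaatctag
mt-Tf (tRNA-Phe-GAA), chrM:1-68, plus strand: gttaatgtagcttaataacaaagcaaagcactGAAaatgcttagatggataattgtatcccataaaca
mt-Ts1 (tRNA-Ser-TGA), chrM:6870-6938, minus strand: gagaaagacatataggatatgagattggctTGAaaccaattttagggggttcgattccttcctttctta

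Other fragments of mt-Tk fell the most, from 39.9 and 23.2 RPM in Ctrl to 3.51 and 2.44 RPM in Ang OE (log2 fold change −3.41 ± 0.59, adjusted p = 0.0131). Other fragments of mt-Tn fell from 13.1 and 8.35 RPM to 1.76 and 1.30 RPM (−2.81 ± 0.42, adjusted p = 0.0131), although genome-matched reads alone gave 0.23. The ends of these tRNAs were not called: the 3′ fragments of mt-Tk overlapped between the groups, at 17.9 and 11.1 RPM against 12.1 and 8.27 RPM. Only Ctrl replicate 2 could be left out without ending these 2 calls.

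Other fragments of Trp-TCA, Ser-GCT, His-GTG, Ile-GAT, Val-TAC and Asp-GTC fell as well, with log2 fold changes of −2.01 to −1.44 and adjusted p-values of 0.0131 to 0.0399. Those of Val-TAC were the most abundant, at 393.9 and 240.9 RPM in Ctrl and 114.8 and 118.5 RPM in Ang OE. In all 6 the Ang OE libraries lay below the Ctrl libraries. The 3′ fragments of Phe-GAA and Trp-TCA fell by 1.62 and 1.05 on the log2 scale. The 5′ fragments rose for 2 tRNAs, from 45.1 and 44.5 RPM to 77.2 and 77.3 RPM for Ser-TGA (0.79 ± 0.20, adjusted p = 0.0423) and by 1.65 on the log2 scale for Phe-GAA, which had 23 and 16 reads in Ctrl and 49 and 70 reads in Ang OE. The calls of these 5′ and 3′ fragments, and of the other fragments of Ser-GCT, His-GTG, Ile-GAT and Val-TAC, were lost whichever library was left out. Those of the other fragments of Trp-TCA and Asp-GTC were lost without any library but Ctrl replicate 2. Other fragments of Asp-GTC had 34 and 25 reads in Ctrl and 6 and 8 reads in Ang OE.

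**Figure D3:**
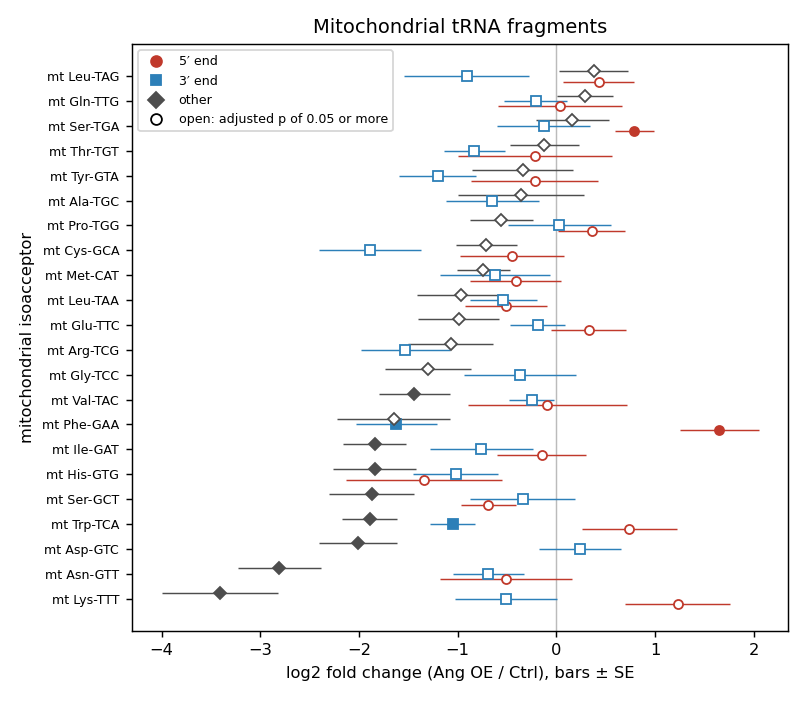
Log2 fold change (Ang OE over Ctrl, horizontal axis, bars are ± SE) of the 5′, 3′ and other fragments of each of the 22 mitochondrial tRNA isoacceptors (vertical axis); filled symbols passed an adjusted p of 0.05. The other fragments of Lys-TTT and Asn-GTT lie lowest, at −3.41 and −2.81, and 2 filled 5′ fragments lie to the right of 0.

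Among the rRNA subclasses 3 of 10 fell and none rose, where 18.4% of the 103 subclasses fell. The subclass 4.5S rRNA fell from 2666 and 2959 RPM to 841.5 and 855.7 RPM (log2 fold change −1.73 ± 0.12, adjusted p = 0.00082). It stayed called in all 14 other settings tried, each left-out library among them. Fragments of 18S rRNA, the RNA of the small ribosomal subunit, fell from 2546 and 2680 RPM to 1402 and 1706 RPM (−0.75 ± 0.13), and those of mitochondrial 12S rRNA fell from 2.32 and 1.88 RPM to 1.03 and 0.917 RPM. The calls of 18S and 12S rRNA were lost whichever library was left out.

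Fragments of 28S rRNA had 16725 and 14218 RPM in Ctrl and 11364 and 12603 RPM in Ang OE and those of 5.8S rRNA 39433 and 38772 RPM against 35469 and 37102 RPM, which did not pass and turned to 0.01 and 0.26 on the log2 scale with TMM normalization and to 0.16 and 0.41 with DESeq2's own size factors. 5S rRNA overlapped between the groups. The 2 Y RNAs, short RNAs of Ro ribonucleoproteins, were not called: RNY1 had 692.8 and 600.9 RPM against 700.1 and 679.5 RPM, and RNY3 98.1 and 97.2 RPM against 78.3 and 68.9 RPM.

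Fragments that Ensembl assigns to snoRNAs fell from 32478 and 31632 RPM to 19228 and 21387 RPM (log2 fold change −0.66 ± 0.08, adjusted p = 0.0131). Of the 5 snRNA and snoRNA subclasses this was the only one called, near the 18.4% of all 103 subclasses that fell, and scaRNA overlapped at 127.5 to 163.2 RPM. Reads of lincRNAs fell from 7223 and 10952 RPM to 2396 and 2420 RPM (−1.92 ± 0.39, adjusted p = 0.0233), and antisense, bidirectional promoter, 3′ overlapping and misc RNA reads fell by 0.64 to 2.47 on the log2 scale. The calls of lincRNA, antisense, bidirectional promoter and misc RNA reads were lost whichever library was left out, that of snoRNA without Ctrl replicate 1 or Ang OE replicate 1, and that of 3′ overlapping RNA, with 18 reads in each Ctrl library and 2 and 4 in Ang OE, without any library but Ctrl replicate 2. Reads annotated as piRNA, the largest class after miRNA, had 218415 and 214382 RPM against 193498 and 200382 RPM, which did not pass, and turned to 0.23 with TMM normalization and 0.38 with DESeq2's own size factors. Only 12.4% and 12.3% of them matched the genome in Ctrl and 7.47% and 7.87% in Ang OE. Leaving out a library left 1 to 7 of the 21 calls of this table, with 1 without Ctrl replicate 1 or Ang OE replicate 1, 2 without Ang OE replicate 2 and 7 without Ctrl replicate 2.

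miRNAs repress messenger RNAs that pair with their seed, bases 2 to 8 of the mature strand. Of 533 miRNA precursors tested, 129 rose (24.2%) and 75 fell (14.1%) in Ang OE at an adjusted p under 0.05, 38.3% in all. Both Ang OE libraries lay above both Ctrl libraries in 39.6% of the 533 and below in 30.4%. The files count reads per precursor, so the arms are not told apart, and precursors with the same mature sequence share reads. Levels are CPM after TMM scaling. With clean reads without rRNA as library size in place of TMM, 98 rose and 103 fell and the median log2 fold change over all miRNAs was −0.08 instead of 0.06.

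mir-10a, which lies in a Hox cluster, was the most abundant miRNA and overlapped between the groups, at 139296 and 149581 CPM against 157352 and 147409 CPM. mir-21a, which many growth and immune signals induce, rose from 57817 and 60069 CPM to 117766 and 133871 CPM (log2 fold change 1.09 ± 0.10, adjusted p = 3.86e-07). mir-143, a miRNA of smooth muscle and connective tissue, rose from 50172 and 46194 CPM to 103490 and 147963 CPM (1.38 ± 0.16, adjusted p = 4.08e-06). In both, the lower Ang OE library was above the higher Ctrl library. mir-99b, which shares a cluster with let-7e, fell from 108530 and 117425 CPM to 79923 and 71781 CPM (−0.57 ± 0.10). With offsets for base composition, described at the end, mir-99b lost its call and mir-10a was called lower. The 10 leading miRNAs took 69.1% and 69.7% of the miRNA reads in Ctrl and 71.6% and 72.6% in Ang OE. mir-10b, mir-22 and mir-30a rose by 0.27 to 0.51 on the log2 scale, but the calls of mir-10b and mir-22 were lost whichever library was left out, while mir-182, mir-191 and mir-151 were not called.

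The let-7 family, repressors of growth genes, shares 1 seed, and its members responded unequally. Their mature 5′ strands follow, from RefSeq (GRCm38.p6), with the seed in capitals.
let-7f-5p, chr13:48537889-48537910, minus strand: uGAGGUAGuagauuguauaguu
miR-98-5p, chrX:151913229-151913250, plus strand: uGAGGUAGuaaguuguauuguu
let-7g-5p, chr9:106178846-106178867, plus strand: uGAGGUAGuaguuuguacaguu
let-7i-5p, chr10:122985698-122985719, minus strand: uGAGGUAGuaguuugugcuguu
let-7a-5p, chr13:48538239-48538260, minus strand: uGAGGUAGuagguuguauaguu
let-7c-5p, chr16:77599672-77599693, plus strand: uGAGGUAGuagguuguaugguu
let-7d-5p, chr13:48536078-48536099, minus strand: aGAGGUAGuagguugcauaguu
let-7e-5p, chr17:17830366-17830387, plus strand: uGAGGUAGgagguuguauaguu
let-7b-5p, chr15:85707325-85707346, plus strand: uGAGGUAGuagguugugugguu

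Of the 14 let-7 and mir-98 precursors, 7 rose and none fell, where 24.2% of all miRNAs rose and 14.1% fell, and the median log2 fold change was 0.54 against 0.06 over all miRNAs. With offsets for base composition, described at the end, let-7b, let-7d and let-7e were called lower and let-7a-1 turned to −0.09. mir-98 rose from 766.7 and 720.9 CPM to 1930 and 2079 CPM (1.43 ± 0.11, adjusted p = 6.5e-08), and let-7f-2 from 2760 and 2641 CPM to 7090 and 7293 CPM. let-7i rose from 5026 and 4718 CPM to 9162 and 10782 CPM, let-7g by 0.93 and let-7a-1 by 0.54 on the log2 scale. let-7b, at 2533 and 2777 CPM against 2429 and 2318 CPM, let-7d and let-7e were not called and had log2 fold changes of −0.16 to −0.07. let-7d, let-7f-1 and let-7a-1 lie side by side on chromosome 13, and of these let-7f-1 and let-7a-1 rose. let-7f-2 on chromosome X has the same mature strand as let-7f-1, and let-7a has a further precursor, let-7a-2. The reads of let-7f-1 and let-7a-1 thus cannot be placed at the chromosome 13 locus.

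Other miRNAs that the results turn on are shown with their mature strands, again with the seed in capitals.
miR-101a-3p, chr4:101346957-101346977, minus strand: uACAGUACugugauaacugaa
miR-190a-5p, chr9:67236700-67236721, minus strand: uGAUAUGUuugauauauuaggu
miR-301a-3p, chr11:87113054-87113076, plus strand: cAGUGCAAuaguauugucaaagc
miR-210-3p, chr7:141221407-141221428, minus strand: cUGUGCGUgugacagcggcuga
miR-96-5p, chr6:30169506-30169528, minus strand: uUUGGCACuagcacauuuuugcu
miR-21a-5p, chr11:86584120-86584141, minus strand: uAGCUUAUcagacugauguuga
miR-5122, chr4:133369784-133369803, plus strand: cCGCGGGAcccggggcugug
miR-344d-3p, chr7:61683127-61683148, minus strand: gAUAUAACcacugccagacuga
miR-345-5p, chr12:108836989-108837010, plus strand: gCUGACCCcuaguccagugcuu
miR-92a-3p, chr14:115044476-115044496, plus strand: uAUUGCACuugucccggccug
miR-99b-5p, chr17:17830194-17830215, plus strand: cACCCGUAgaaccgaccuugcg

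Among called miRNAs with at least 100 reads on average, mir-101a rose the most, from 31.9 and 34.95 CPM in Ctrl to 121.7 and 148.7 CPM in Ang OE (log2 fold change 2.02 ± 0.15, adjusted p = 5.65e-08). mir-190a rose from 10.4 and 8.58 CPM to 31.9 and 34.9 CPM and mir-301a, at higher levels, from 931.9 and 875.3 CPM to 2723 and 2856 CPM (1.63 ± 0.10, adjusted p = 1.5e-08). The groups were far apart for each of them. mir-210, the miRNA that hypoxia induces, rose from 132.9 and 141.1 CPM to 354.3 and 390.3 CPM (1.44 ± 0.12, adjusted p = 9.33e-08), and mir-96 from 101.5 and 98.6 CPM to 268.3 and 272.5 CPM. mir-708 and mir-669e rose too, at 1.54 to 7.22 CPM.

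Among called miRNAs with at least 100 reads on average, mir-5122 fell the most, from 15.7 and 12.9 CPM to 2.30 and 4.09 CPM (log2 fold change −2.16 ± 0.21). The 3 copies of mir-344d, which lie together on chromosome 7 and share their reads, fell from 136.4 to 149.5 CPM in Ctrl to 62.1 to 66.0 CPM in Ang OE, with log2 fold changes of −1.18 to −1.14. mir-345 fell from 468.0 and 575.4 CPM to 182.4 and 328.1 CPM, mir-500 from 55.7 and 63.8 CPM to 29.6 and 27.0 CPM, and mir-6516 and mir-760 by 1.38 and 1.03 on the log2 scale. In none of these did the groups overlap.

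**Figure D4:**
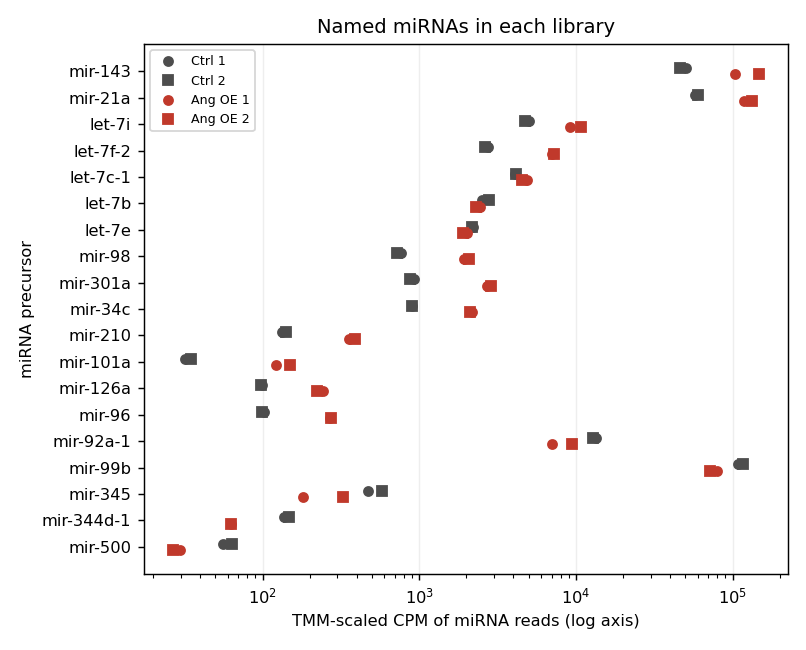
TMM-scaled CPM (horizontal log axis) of 19 named miRNA precursors (vertical axis) in each Ctrl and Ang OE library, 1 symbol per library. mir-101a moves from 31.9 and 34.95 to 121.7 and 148.7 CPM, while let-7b and let-7e have slightly lower values in Ang OE than in Ctrl.

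Of the miRNAs that p53 induces, 6 of 8 rose and none fell, with a median log2 fold change of 0.75, where over all miRNAs tested 24.2% rose, 14.1% fell and the median was 0.06. mir-34c rose from 904.1 and 894.3 CPM to 2173 and 2122 CPM (1.26, adjusted p = 7.84e-08). mir-192 rose from 401.9 and 463.8 CPM to 898.7 and 780.8 CPM, mir-34b from 55.2 and 62.5 CPM to 78.0 and 94.4 CPM, and mir-34a from 2.10 and 2.45 CPM to 6.05 and 4.09 CPM. mir-34b, mir-34c and mir-449a are also known from germ cells of the testis, and all 3 rose. Of the germ cell list 4 of 5 tested were called higher, against 24.2% of all miRNAs. Among them mir-871 lost its call in 3 of the 4 models that left out a library (without Ctrl replicate 1, Ctrl replicate 2 or Ang OE replicate 2) and mir-34b without Ang OE replicate 2, while mir-741 was at 0 to 0.172 CPM.

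Among the 7 tested miRNAs that innate immune signals induce, mir-21a, mir-155 and mir-147 rose and mir-132 fell, from 22.3 and 28.01 CPM to 17.0 and 13.5 CPM. Over all miRNAs 24.2% rose and 14.1% fell, which is the background also for the cluster that follows. mir-155 had 1166 and 1205 CPM in Ctrl and 1552 and 1397 CPM in Ang OE, and its call was lost in 3 of the 4 models that left out a library (without Ctrl replicate 1, Ctrl replicate 2 or Ang OE replicate 1) and turned to −0.20 on the log2 scale with the base composition offsets. mir-147 lost its call without Ang OE replicate 1 and with these offsets. In the X-linked cluster of mir-322 and mir-503, 5 of 7 rose, such as mir-450b from 332.1 and 307.4 CPM to 584.3 and 576.0 CPM, and mir-351 fell from 3702 and 3636 CPM to 3172 and 2791 CPM. mir-351 lost its call in 3 of the 4 models that left out a library and mir-322 in 2, and with the base composition offsets described at the end mir-351, mir-322 and mir-450b lost their calls and mir-450a-1 turned to −0.07, while mir-542 stayed called.

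In the mir-17-92 family of clusters, which MYC induces, 2 of 12 rose and 2 fell, where 24.2% and 14.1% of all miRNAs did, so the counts show nothing particular to the family. The median log2 fold change was −0.12. mir-19a rose from 76.4 and 70.8 CPM to 156.5 and 156.6 CPM and mir-20a from 562.2 and 610.4 CPM to 885.9 and 750.8 CPM. The call of mir-20a was lost without Ang OE replicate 1 and with the base composition offsets. mir-92a-1 of the same cluster fell from 13407 and 12803 CPM to 7007 and 9408 CPM, and mir-92a-2 fell by 0.46 on the log2 scale. mir-17, mir-25 and mir-93 were not called. The miRNAs of the imprinted Dlk1-Dio3 cluster were nearly silent: 7 of 19 passed the filter, summed levels were 14.7 to 15.8 CPM, and mir-411 rose and mir-410 fell. The call of mir-410 was lost whichever library was left out, and that of mir-411 in 3 of the 4 models.

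mir-126a, known from endothelial cells, rose from 98.8 and 98.0 CPM to 243.3 and 224.0 CPM. mir-9 of nerve cells was called higher at 0.798 and 0.871 CPM against 2.21 and 2.60 CPM for mir-9-1, while mir-124 was at 0 to 0.0113 CPM. mir-206 of muscle was called higher at 1.71 and 2.08 CPM against 4.40 and 2.44 CPM, a call lost without Ang OE replicate 1. The other tested muscle miRNAs, mir-133a-1 and mir-133a-2, were not called and had 0.273 and 0.302 CPM in Ctrl and 0.103 and 0.103 CPM in Ang OE, and mir-133b was at 0 to 0.0354 CPM. The liver miRNA mir-122 was at 0 to 0.103 CPM. Of the connective tissue list 3 of 6 tested rose, mir-143, mir-145a and mir-199b, and mir-214 fell, where 24.2% of all miRNAs rose and 14.1% fell. mir-145a and mir-199b lost their calls without Ang OE replicate 1, and mir-214 without Ctrl replicate 2 or Ang OE replicate 2. The part of other cell types in these results was not tested.

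Base composition moved with the miRNA result. The content of G and C in the mature sequences was known for 431 of the 533 miRNAs tested (80.9%), and among the miRNAs that rose for 91 of 129 (70.5%), so that comparing the GC content of the set that rose with that of other miRNAs would be void, and the fold changes of all miRNAs with a value are described instead. GC content was taken over both mature strands where both are listed. In the third of miRNAs with the lowest GC content (23.8% to 46.7%) the median log2 fold change was 0.37 (n = 146). In the third with the highest (55.8% to 87.0%) it was −0.35 (n = 142). Across the 431 miRNAs, which are not independent replicates, Spearman's rho between GC content and the fold change was −0.45. It was −0.46 to −0.40 for each Ang OE library against each Ctrl library, 0.03 between the Ctrl libraries and 0.05 between the Ang OE libraries.

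**Figure D5:**
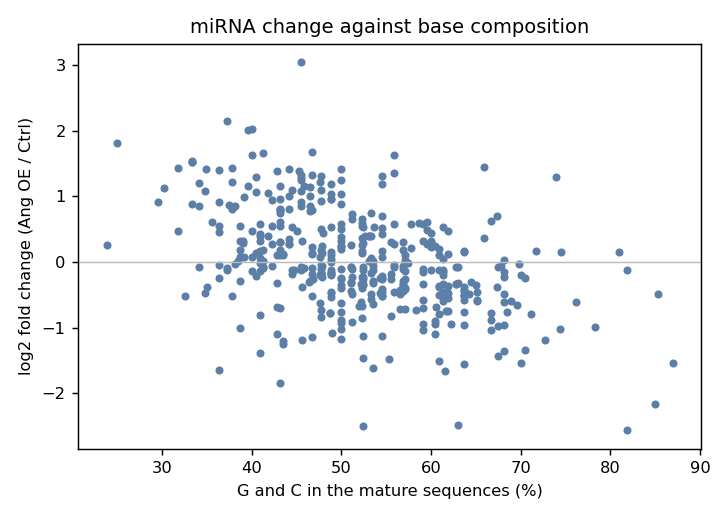
Log2 fold change (Ang OE over Ctrl, vertical axis) of 431 miRNA precursors against the percentage of G and C in their mature sequences (horizontal axis), 1 point per precursor. The points slope downwards, with a Spearman's rho of −0.45.

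After a correction chosen after seeing the data, with offsets that remove the trend with GC content in each library, 60 of the 431 miRNAs rose and 63 fell, against 89 and 59 without the offsets. mir-143 has no GC value and was not in this model. mir-21a, mir-101a, mir-301a, mir-210, mir-98 and let-7f-1 still rose and mir-344d-1 and mir-345 still fell. let-7a-1, mir-155 and mir-450a-1 turned below 0, at −0.09, −0.20 and −0.07, and mir-10b and mir-22 at −0.08 and −0.02, while mir-351 turned to 0.08. mir-10a was called lower, at −0.37 (adjusted p = 0.0355), and so were let-7b, let-7d and let-7e, at −0.32 each. mir-99b, mir-20a, mir-34b, mir-147, mir-450b, mir-322, mir-411, mir-9-1, mir-199b, mir-214, mir-206 and mir-760 lost their calls. The part of base composition in the miRNA differences was otherwise not tested.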

How the data were processed

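The libraries were made by the authors with the TruSeq Small RNA kit, whose inserts were size-selected, and reads were kept at the lengths their methods state. Per the labels, FastQC 0.12.0 and Trimmomatic 0.40 were used and the build was mm10. The authors' SPORTS1.1 run assigned reads in a fixed order of databases with a mismatch allowed, and the deposited tables hold its estimated counts for each subclass without normalization. Genome-matched and unmatched counts were added and rounded. A subclass needed at least 10 reads in 2 or more TM4 libraries, and testing used edgeR 4.0.16 (R 4.3.3, quasi-likelihood, 6 libraries, group alone, Benjamini-Hochberg adjustment within each table). Library size was clean reads without rRNA, or TMM for miRNAs. A tRF call needed more than a 2-fold difference and an adjusted p under 0.05. DESeq2 1.42.0 and ComBat-seq (sva 3.50.0) were alternatives; the batches of the authors' own ComBat-seq step are not named.

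Named features were the called ones with the largest change whose groups did not overlap and whose mean was at least 100 reads (10 tRFs, 8 miRNAs and 8 other subclasses per direction), the 10 most abundant tRFs and miRNAs, and members of the lists; called mitochondrial fragments and RNA subclasses outside it were named after their values were seen. The members and lists were chosen with earlier results of these data known. Sequences are from RefSeq and GENCODE. The sperm libraries were not used here.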

Additional observations from a re-analysis of the deposited data

How the results depend on the processing

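With 2 libraries a group, calls had few degrees of freedom. Against 14 tRFs called, DESeq2 called 27 with the same library sizes and 31 with its own, TMM gave 24, Ctrl and Ang OE alone 30, ComBat-seq with the replicate number as batch 34, and counting CCA-tailed fragments as other 5; leaving out 1 library gave 3 to 14. The 204 miRNA calls became 123 with GC offsets (chosen after seeing the data, 431 miRNAs) and 157 to 175 with 1 library left out, and the 21 calls of other subclasses 40 with ComBat-seq and 1 to 7 with 1 library left out. Replicate numbers did not pair the samples (correlations of deviations −0.323 for tRFs, 0.0229 for miRNAs and −0.267 for other subclasses); with them as a replicate block the calls numbered 18, 222 and 24. A crossed pairing, also chosen after seeing the data, called 35 tRFs and 43 other subclasses. Of 1738 refits of named features by planned settings, 1443 kept direction and side of the threshold, 204 lost and 70 gained a call, and 21 reversed.

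As log2 ratios of mean shares, leaving out 1 library gave 0.52 to 0.96 for tRNA, −0.62 to −0.25 for mitochondrial tRNA, 0.07 to 0.14 for miRNA, −0.33 to −0.19 for rRNA, −0.19 to −0.13 for piRNA, −0.09 to 0.12 for Y RNA, −0.77 to −0.61 for snoRNA, −1.05 to −0.44 for snRNA and −0.70 to −0.58 for other Ensembl and Rfam classes. It gave 0.67 to 1.25 for tRF5, −1.93 to −1.34 for tRF3 and −0.46 to −0.39 for other fragments. For families it gave 0.62 to 0.76 for Gly, 0.36 to 1.05 for Val, −0.11 to 0.09 for Lys, −1.30 to −1.15 for Glu, −2.16 to −1.39 for Ala, −2.71 to −2.18 for Ile and −2.32 to −1.77 for Phe. Genome-matched reads alone gave −0.74 for rRNA, −0.89 for piRNA, −2.10 for tRF3, −0.61 for other fragments, 0.83 for Gly, −0.22 for Lys, −1.35 for Glu and −2.80 for Ile. RPM gave 1.69 for tRF5, −0.84 for tRF3, 0.35 for other fragments, 1.47 for Gly, 1.43 for Val, 0.75 for Lys, −0.45 for Glu, −0.99 for Ala, −1.68 for Ile and −1.24 for Phe. piRNA as a percentage of clean reads gave −0.12, and CCA-tailed fragments counted as other gave −0.85 for other fragments.

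Reversed log2 fold changes, whose cause was not tested, were these. tRF3 of Tyr-GTA turned to 1.36 with CCA-tailed fragments apart and 1.35 with them as other. With clean reads without rRNA as library size mir-10a, mir-182 and mir-191 were at −0.06, −0.01 and −0.08, with all clean reads mir-10a and mir-191 at −0.05 and −0.06, and with a filter of 100 reads at −0.03 and −0.05. mir-191 was at −0.01 with DESeq2's own size factors. Without Ang OE replicate 1 mir-10a was at −0.05, and mir-191 ran from −0.18 (without Ang OE replicate 1) to 0.18 (without replicate 2 of either group) with 1 library left out. GC offsets gave −0.37 for mir-10a, −0.08 for mir-10b, −0.02 for mir-22 and mir-182, −0.09 for let-7a-1, −0.14 for let-7c-1, −0.20 for mir-155, −0.07 for mir-450a-1 and 0.08 for mir-351. Other fragments of mt Asn-GTT were at 0.23 with genome-matched reads alone. DESeq2's own size factors and TMM gave 0.16 and 0.01 for 28S rRNA, 0.41 and 0.26 for 5.8S rRNA and 0.38 and 0.23 for piRNA, and DESeq2's gave 0.10 for RNY3.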

Other observations

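Precursors of the mir-297, mir-466, mir-467 and mir-669 families, which lie in repeated copies and share reads, were singled out after their values were seen. Of the 73 tested, 36 were called higher in Ang OE and none lower, with a median log2 fold change of 0.48 against 0.06 over all miRNAs tested. Over all miRNAs tested 24.2% were called higher. Among the 36 are 11 copies of mir-669a that share the same calls, which were lost in 3 of the 4 models that left out a library (without Ctrl replicate 2, Ang OE replicate 1 or Ang OE replicate 2). Their summed levels were 603.1 and 552.6 CPM in Ctrl and 835.0 and 823.9 CPM in Ang OE, so that the groups did not overlap. Because their mature sequences are close to each other, the number of independent measurements behind these calls is smaller than the number of precursors. Of these families only mir-466i, mir-466k and mir-466q have a GC value, and none of them was called. None of the 36 calls was therefore in the description by GC content or in the model with GC offsets.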
